A study of Mus musculus with 4 samples.

Results

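Loss of Miwi2 in the spleen was described gene by gene, from 2 lists of small RNA sequences that lie in 3' UTR clusters. The lists came from adult C57BL/6 mice, 1 library from WT spleen and 1 from Miwi2-/- spleen; how the Miwi2 allele was made is not given in the labels. Every sequence was placed on the mouse genome (NCBIM37, the same build as mm9) at a single best position with at most 1 mismatch. A sequence was kept if at least 50% of it lay in a protein-coding 3' UTR of GENCODE M1, and sequences at the Mir21 gene were left out. This gave 348 genes in either spleen list, of 790 genes over all 4 libraries of the study, which also hold WT liver and Miwi2-/- liver. The WT spleen list kept 2024 sequences and the Miwi2-/- spleen list 256. A deposited list gives each sequence 1 time, without a read number, so every value below counts distinct sequences, whatever the abundance of each. The labels do not say whether the spleens were pooled, and no test between genotypes is possible with 1 library per side.

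MIWI2, the product of the Piwil4 gene, is a PIWI protein. PIWI proteins bind piRNAs, small RNAs that in the germline silence transposons; MIWI2 acts in the nucleus of fetal male germ cells, where it guides DNA methylation. Most primary piRNAs begin with U. Small RNAs that map in sense to the 3' UTRs of protein-coding genes are known in germline and somatic tissues, and the spleen, a blood-filtering and lymphoid organ, mixes red cell precursors, lymphocytes, phagocytes and stroma.

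The sequences themselves show what being in both lists or in one list means. They are written 5' to 3' in DNA letters in the direction of the gene. The first base is in capitals, as is a base that differs from the genome. Hist1h1c and Mbnl1 are shown first because they hold 14 and 6 of the 41 sequences found in both spleen lists. Hist1h1c encodes a linker histone, and its sequences come from the plus strand.
Hist1h1c, both lists, chr13:23831406-23831422: Acttaagagctgtgaca
Hist1h1c, both lists, chr13:23831406-23831426: Acttaagagctgtgacatttg
Hist1h1c, both lists, chr13:23831408-23831426: Ttaagagctgtgacatttg
Hist1h1c, both lists, chr13:23831411-23831434: Agagctgtgacatttgtgtgatta
Hist1h1c, both lists, chr13:23831411-23831434: AgagctgtgacatttgtgtgatAa
Hist1h1c, both lists, chr13:23831411-23831438: Agagctgtgacatttgtgtgattaatga
Hist1h1c, WT only, chr13:23831405-23831434: Cacttaagagctgtgacatttgtgtgatta
Hist1h1c, Miwi2-/- only, chr13:23831402-23831426: Tcccacttaagagctgtgacatttg
Hist1h1c, Miwi2-/- only, chr13:23831413-23831435: AgctgtgacatttgtgtgatAaa
The Hist1h1c sequences step along a short stretch from both ends, so single-list sequences lie on top of those in both lists. Mbnl1, which encodes a splicing regulator, held a ladder of sequences with a common 5' end and different 3' ends on the plus strand.
Mbnl1, both lists, chr3:60431252-60431271: Tatgccatttctgagacaca
Mbnl1, both lists, chr3:60431252-60431272: Tatgccatttctgagacacaa
Mbnl1, both lists, chr3:60431252-60431273: TatgccatttctgagacacaaA
Mbnl1, both lists, chr3:60431252-60431274: Tatgccatttctgagacacaata
Mbnl1, WT only, chr3:60431253-60431274: Atgccatttctgagacacaata
Mbnl1, Miwi2-/- only, chr3:60431251-60431270: AtatgccatttctgagacaA

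A second set is shown because its sequences were in all 4 lists, liver included. Dnmt3a encodes a DNA methyltransferase, and Tnrc6b a scaffold of the microRNA silencing complex. Both lie on the plus strand.
Dnmt3a, all 4 lists, chr12:3911926-3911945: Actacaaggtcttcaggaac
Dnmt3a, all 4 lists, chr12:3911927-3911945: Ctacaaggtcttcaggaac
Tnrc6b, all 4 lists, chr15:80770478-80770501: GacagaggaggagagagatcctgA
Another set shows genes that were in both lists with few or no exact sequences in common. Hist1h3g encodes a core histone, Hbb-b2 an adult beta globin and Cpm a carboxypeptidase of the plasma membrane. Hbb-b2 lies on the minus strand, Hist1h3g and Cpm on the plus strand.
Hist1h3g, both lists, chr13:23627784-23627809: CaaaaaaagaactgtagcgctttttA
Hist1h3g, Miwi2-/- only, chr13:23627782-23627809: TccaaaaaaagaactgtagcgctttttA
Hbb-b2, WT only, chr7:110961099-110961124: Agagaaaaactgtcaattgtggggaa
Hbb-b2, Miwi2-/- only, chr7:110961097-110961124: AgagaaaaactgtcaattgtggggaaaA
Cpm, WT only, chr10:117121316-117121338: AtccagtcactggaagctgctgA
Cpm, Miwi2-/- only, chr10:117121317-117121335: Tccagtcactggaagctgc
The last set shows genes with WT sequences and no Miwi2-/- sequence. Marcks encodes an actin-binding substrate of protein kinase C, Mlec a carbohydrate-binding protein of the endoplasmic reticulum and Acta2 smooth muscle actin. All lie on the minus strand.
Marcks, WT only, chr10:36853585-36853607: AaccaaaggactgagtggtgggA
Marcks, WT only, chr10:36854896-36854923: AagctgtgatacgtggaatggttactgA
Mlec, WT only, chr5:115593284-115593305: AttgaacttggctgcttgtggA
Acta2, WT only, chr19:34315578-34315598: Atgcgtgacttttaacttgca

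The 2 spleen libraries differed in depth. Uniquely aligned distinct sequences numbered 129176 in the WT spleen library and 25218 in the Miwi2-/- spleen library, a depth ratio of 0.195. By uniquely aligned reads, 273960 and 41644, the ratio was 0.152. The lists themselves, 256 sequences against 2024, had a ratio of 0.126. In liver, the lists had a ratio of 0.123 beside a depth ratio of 0.206. All 2634 sequences of the WT spleen list and all 378 of the Miwi2-/- spleen list lay in the 345 deposited WT spleen cluster regions. The Miwi2-/- list therefore reports on regions called in WT, and a gene with sequences in Miwi2-/- spleen alone could not enter it. Removing Mir21 took 8.09% of the WT list and 18.5% of the Miwi2-/- list. The part that lay outside annotated 3' UTRs was 15.1% and 13.8%.

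Of the 348 genes, 130 were in both lists (37.4%, exact Clopper-Pearson 95% interval 32.3 to 42.7%), 218 were in the WT list alone and 0 in the Miwi2-/- list alone. The number in both was 60 among sequences without a mismatch, and 40 with at least 2 sequences required in each list. Intervals here cover counting error only. Most genes in both lists rested on little: 90 had 1 Miwi2-/- sequence, 17 had 2, 18 had 3 to 5 and 5 had 6 or more. Those 5 genes were Hist1h1c, Trim25, Mbnl1, Hist1h3g and Dcp2, and together they held 70 of the 256 Miwi2-/- sequences (27.3%). In the WT list, the 5 genes with the most WT sequences, not the same 5, held 271 sequences (13.4%). The median gene in both lists had 5.5 WT sequences, and the median gene in the WT list alone had 4.

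Among the 340 genes with at least 3 WT sequences, 212 had no Miwi2-/- sequence, which is 62.4% (interval 57.0 to 67.5%). The corresponding share in liver was 56.7%, 271 of 478 genes. In spleen, the share followed the WT number. It was 82.9% of the 117 genes with 3 WT sequences, 66.4% of the 128 genes with 4 to 5, 44.1% of the 59 genes with 6 to 9, and 11.1% of the 27 genes with 10 to 19. Of the 9 genes with 20 to 90 WT sequences, 1 had none in Miwi2-/-. At the median of the 340 genes, the WT number times the depth ratio (the scaled WT number) was 0.781 sequences. A list of 256 sequences allows a share of up to 1.17% for a gene at 0 (3 of 256), and 0 of the genes without a Miwi2-/- sequence had a WT share above that limit. A scaled WT number of 3 takes 15.4 WT sequences, and 1 of the 212 genes, Tcf4, had that many. By the share limit, no absence was detectable at this depth, that of Tcf4 included. By the scaled WT number, none but that of Tcf4 was.

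**Figure D1:**
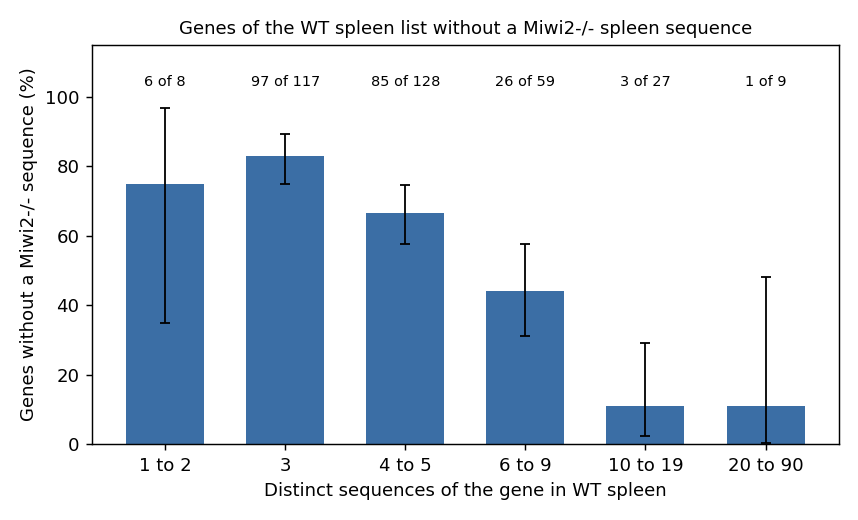
Percentage of genes of the WT spleen list that had no sequence in the Miwi2-/- spleen list (y axis), by the number of distinct sequences of the gene in WT spleen (x axis). Error bars are exact 95% intervals for counting error, and the numbers above the bars count genes; the share is 82.9% at 3 WT sequences and 11.1% at 10 to 19.

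Each gene's Miwi2-/- number was then set beside its scaled WT number, with the exact Poisson 95% interval of the Miwi2-/- number. Of the 340 genes, 337 had an interval that held the scaled WT number. The interval lay above it for 2 genes (0.588% of those compared), Hist1h1c and Hist1h3g, and below it for 1 gene (0.294%), Tcf4. Fewer genes had a Miwi2-/- number over the scaled WT number (83) than under it (257). The genes were selected by their WT number, and each of the 212 genes without a Miwi2-/- sequence counts as under. This order was thus largely set in advance, and no conclusion was drawn from it. Distinct sequences of a gene can overlap one another and are then not independent counts, so the calls do not test a difference between genotypes. The scaled WT number also takes distinct sequences to grow in proportion to depth, which was not tested. The calls depended on the ratio as well. With the ratio of reads, the interval lay above for 5 genes, Hist1h1c, Hist1h3g, Hist1h4h, Hbb-b2 and Dcp2, and below for 0. With the ratio of the lists themselves, Slc43a2 joined them to make 6 above, and again 0 lay below.

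**Figure D2:**
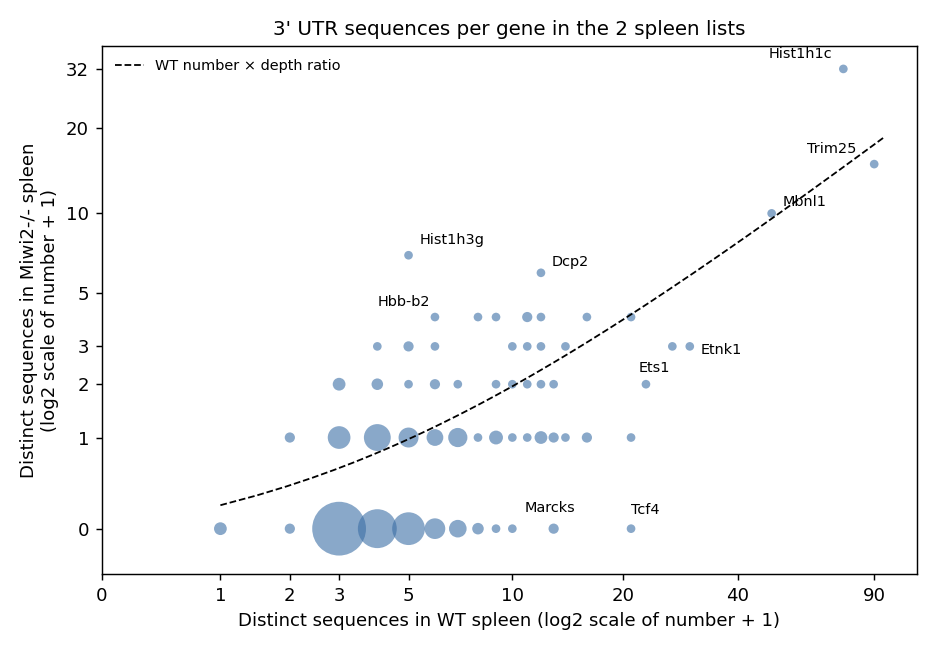
Number of distinct 3' UTR sequences per gene in WT spleen (x axis) and Miwi2-/- spleen (y axis), both on a log2 scale of the number plus 1. Circles stand for all genes at the same pair of numbers, with larger circles for more genes, and the dashed line is the WT number times the depth ratio of 0.195. Hist1h1c (75 and 32) and Hist1h3g (5 and 7) sit far above the line, and Tcf4 (21 and 0) sits at 0 on the y axis.

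Histone genes held 45 of the 256 Miwi2-/- sequences and 90 of the 2024 WT sequences. Clustered histone mRNAs mostly end in a stem-loop instead of a poly(A) tail, and their products package DNA. Hist1h1c (ENSMUSG00000036181.1, 3' UTR chr13:23831357-23832235, plus strand) had 75 sequences in WT spleen and 32 in Miwi2-/- spleen, beside 10 in WT liver and 0 in Miwi2-/- liver. The 75 WT sequences scaled to 14.6, and the interval of the 32 was 21.9 to 45.2. Most of these sequences overlap one another and are not independent counts, so the interval does not test a difference between genotypes. Hist1h1c made up 3.71% of the WT spleen list and 12.5% of the Miwi2-/- spleen list. Per length of 3' UTR, it held 85.3 WT sequences and 36.4 Miwi2-/- sequences per kb.

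Hist1h3g had 5 sequences in WT spleen and 7 in Miwi2-/- spleen, against a scaled WT number of 0.976 and an interval of 2.81 to 14.4. Hist1h4h, which encodes histone H4, had 4 and 3 sequences, Hist1h4a, another H4 gene, had 3 and 2, and Hist1h3a, a core histone H3 gene, had 3 and 1. Core histone genes have near-identical copies, so that their numbers are uncertain even though each sequence had a single best position. In the list of 21 annotated histone genes chosen for this tissue, 3 were in the WT list and all 3 in the Miwi2-/- list, with 81 and 35 sequences. Taking every clustered histone gene, a set chosen after its values were seen, 5 genes were in both lists, with 90 WT and 45 Miwi2-/- sequences, a ratio of 0.5. The other 343 genes had 1934 and 211, a ratio of 0.109. Without Hist1h1c, the ratio over all other genes was 0.115. Among genes with at least 3 WT sequences, the ratio also rose with the WT number. It was 0.0684 at 3 WT sequences and 0.160 at 10 to 19, so pooled ratios of gene sets with unlike WT numbers are not directly comparable.

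The Hist1h1c sequences were packed at the start of its 3' UTR. A 15-nt window of 5' ends, nt 46 to 60 of the 3' UTR (chr13:23831402-23831416), held 62 of the 75 WT sequences (82.7%) and 27 of the 32 Miwi2-/- sequences (84.4%). In each list, 12 different 5' positions of the window were used. The 14 exact sequences that Hist1h1c had in both lists all began here, as do those printed above. Both lists had their most used 5' position at the same base, chr13:23831411, with 10 WT and 6 Miwi2-/- sequences. The WT liver list had 4 sequences from the same window and Miwi2-/- liver had 0.

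**Figure D3:**
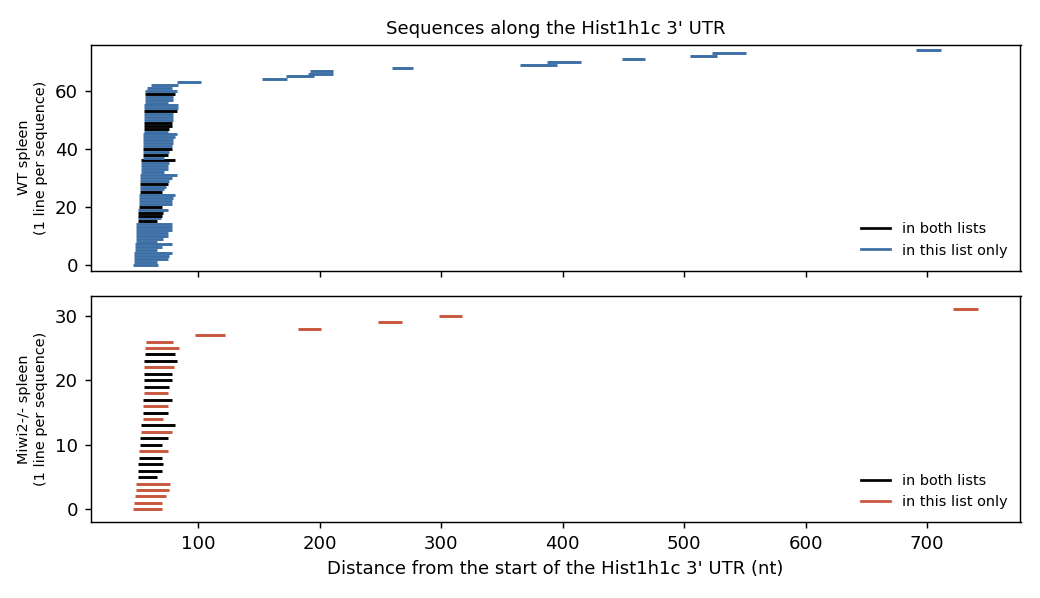
Sequences along the Hist1h1c 3' UTR in WT spleen (upper panel, 75 sequences) and Miwi2-/- spleen (lower panel, 32 sequences); the x axis is the distance from the start of the 3' UTR in nt and each line is 1 distinct sequence, stacked on the y axis in order of its 5' end. Black lines are the 14 sequences in both lists, and in each panel most lines begin at nt 46 to 60.

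Trim25, Mbnl1 and Dcp2, genes of antiviral defence and RNA control, were the other members with 6 or more Miwi2-/- sequences. Trim25 (3' UTR on the plus strand of chromosome 11), a ubiquitin ligase of the RIG-I antiviral pathway, had 90 sequences in WT spleen and 15 in Miwi2-/- spleen, where the scaled WT number was 17.6 and the interval 8.4 to 24.7. It had 91 in WT liver and 7 in Miwi2-/- liver. Its sequences were spread out: the 90 WT sequences had 65 different 5' positions over 3446 nt, and the 15 Miwi2-/- sequences had 15. Mbnl1 had 49 and 10, beside a scaled WT number of 9.57. Here 21 of the 49 WT and 7 of the 10 Miwi2-/- sequences began in a single 15-nt window (chr3:60431246-60431260), which also held 4 sequences of WT liver and 7 of Miwi2-/- liver. The ladder printed above is from that window, and all 10 Miwi2-/- sequences of Mbnl1 began at a WT 5' position.

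Dcp2, the mRNA-decapping enzyme, had 12 sequences in WT and 6 in Miwi2-/-, with a scaled WT number of 2.34 and an interval of 2.20 to 13.1, so the interval reached just below it. The list of Argonaute, microRNA and tailing genes had 4 of its 22 annotated members in the WT list and 2 in the Miwi2-/- list. Tnrc6b had 14 and 3 sequences, and Eif2c3, an Argonaute gene, had 7 and 1. Tnrc6a, a paralogue of Tnrc6b, and Zcchc6, a terminal uridylyltransferase, each had 4 in WT and 0 in Miwi2-/-. Of the piRNA pathway genes, 18 were annotated and 0 had a sequence in either list, Piwil4 included, where 1.75% of all annotated genes had one in WT. Of 29 interferon and antiviral genes, Trim25 and Adar were in the WT list and Trim25 alone in the Miwi2-/- list.

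The genes named next had 4 Miwi2-/- sequences each. Dnmt3a had 21 in WT and 4 in Miwi2-/-, and 3 of those 4 began in the window of the printed sequences (chr12:3911926-3911940), beside 5 of the 21. Setd7, a lysine methyltransferase, had 16 and 4. The tyrosine kinase gene Abl2 had 12 and 4, and Hipk3, a homeodomain-interacting kinase, had 11 and 4. Cpm had 11 and 4, and Ddi2, a proteasome-associated protease, 9 and 4. None of these had an interval that left out its scaled WT number. Cpm, Hipk3, Setd7 and Ddi2 had 4 Miwi2-/- 5' positions each and shared 0 of them with WT.

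Of 52 annotated haematopoietic transcription factors, 8 were in the WT list and 4 in the Miwi2-/- list. The 4 without a Miwi2-/- sequence are 50%, beside 62.4% of all genes. Together the 8 had 87 and 6 sequences, a ratio of 0.0690 beside 0.126 for all genes. Their median WT number was 9, beside 4 for all genes, and Tcf4 alone gave 21 of the 87. At 6 to 9 WT sequences, 44.1% of all genes had none in Miwi2-/-. Neither the share nor the ratio is thus like for like, and no conclusion was drawn from them. Tcf4, an E protein of lymphoid and plasmacytoid dendritic cells, had 21 sequences with 21 different 5' positions in WT and 0 in Miwi2-/-. The 21 WT sequences scaled to 4.10, and 0 has an interval of up to 3.69. This call did not hold with the ratio of reads, by which the scaled number was 3.19. Ets1, a factor of lymphocytes, had 23 and 2 sequences, Elk4, a serum response cofactor, 13 and 2, Mef2c, a MADS-box factor of B cells and myeloid cells, 12 and 1, and Runx1, a master regulator of blood formation, 6 and 1. Foxo1 (5), Elk3 (4) and Stat5b (3) had WT sequences and 0 in Miwi2-/-. Every one of these but Tcf4 had an interval that held its scaled WT number.

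After Tcf4, the genes with the most WT sequences and none in Miwi2-/- spleen had 13 or fewer. Marcks and Mlec had 13 each, and the scaled WT number of each was 2.54, inside the interval of 0 to 3.69. Aff1, a subunit of the super elongation complex, had 10, and Zfp385c, a zinc finger gene, had 9. Bbx, which encodes an HMG-box protein, Itpr1, the inositol trisphosphate receptor, and S1pr3, a sphingosine 1-phosphate receptor, had 8 each. Acta2, the metalloprotease gene Adam19, Nucks1, a nuclear kinase substrate, Phf15, a PHD finger gene, and Ppp2ca, the catalytic subunit of protein phosphatase 2A, had 7 each. Marcks, Aff1, Itpr1 and Phf15 were in the WT liver list with 3, 3, 4 and 3 sequences, and of these 4 only Phf15 was in the Miwi2-/- liver list, with 2. A gene at 7 WT sequences scaled to 1.37, and 0 was within counting error for each of these 12 genes.

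The 6 spleen genes that the study examined by qPCR fell on both sides. Trim25 (90 and 15), Etnk1 (30 and 3) and Elk4 (13 and 2) were in both lists. Tcf4 (21), Mlec (13) and Ppp2ca (7) were in the WT list alone. Etnk1, which encodes ethanolamine kinase, had a scaled WT number of 5.86 and an interval of 0.619 to 8.77. The 3 Etnk1 and 2 Elk4 sequences in Miwi2-/- held 0 exact copies of WT sequences, and 0 of them began at a WT 5' position. The qPCR measured mRNA, not small RNA, and the study reported no apparent expression change of such genes in Miwi2-/- mice.

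Of 124 annotated markers of the spleen's cells, 7 (5.65%) were in the WT list, beside 1.75% of all annotated genes with a 3' UTR. The Miwi2-/- list held 3 of the 7, and the 4 without a Miwi2-/- sequence are 57.1%, beside 62.4% of all genes. The 7 had a median of 6 WT sequences, beside 4 for all genes, so these 2 shares are not like for like. The 7 markers had 35 WT and 7 Miwi2-/- sequences. Hbb-b2, the erythroid marker, had 6 and 4 sequences, with a scaled WT number of 1.17 and an interval of 1.09 to 10.2; near-identical globin copies make its number uncertain. The neutrophil markers S100a8 and S100a9 had 6 and 2, and 3 and 0. Vcam1 and Hmox1, of red pulp macrophages, had 6 and 1, and 4 and 0. The stromal markers Acta2 and Cxcl13 had 7 and 3 in WT, and 0 in Miwi2-/-. Markers of B cells, T and NK cells, dendritic cells and platelets were at 0 in both lists, as were hepatocyte markers, of which 11 were in WT liver and 9 in Miwi2-/- liver. The 7 are 1 of 17 annotated erythroid, 2 of 12 neutrophil, 2 of 18 macrophage and monocyte, and 2 of 16 endothelial and stromal markers, none of them lymphoid. A gene enters these lists by a small RNA sequence in a WT cluster, and the study found that many highly expressed genes had no such RNAs. The markers therefore do not measure which cells were present. Fewer cells of a type cannot be told apart from less RNA per cell.

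Other lists had a small number of members. Of the actin and adhesion genes, 3 were in WT and 2 in Miwi2-/-: Marcks at 13 and 0, Ezr, which links actin to the membrane, at 7 and 1, and Arpc2, an Arp2/3 subunit, at 3 and 1. Of immediate early and stress genes, 3 (Ier2, Ddit4 and Sgk1) were in WT with 13 sequences and 1 in Miwi2-/- with 1 sequence. The lipid enzyme list had Etnk1 and Pip4k2a in WT, and 1 of the 2 in Miwi2-/-. Of 34 annotated RNA-binding and splicing genes, Srsf11 alone was listed, with 3 and 0. Lists this small give no share to set beside the 62.4% of all genes.

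Exact sequences were mostly not shared. The 2 spleen lists had 41 sequences in common, which is 16% of the Miwi2-/- list (interval 11.7 to 21.1%) and 2.03% of the WT list (1.46 to 2.74%). The 41 came from 18 genes, of which 13 gave 1 each. Hist1h1c gave 14, Mbnl1 6, Trim25 4, and Dnmt3a and AI464131 2 each. Of the 130 genes in both lists, 112 had no exact sequence in common, and 100 had no 5' position in common. Of the 41 sequences, 12 were in WT liver, 8 in Miwi2-/- liver, and 6 in all 4 lists.

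The other Miwi2-/- sequences were sorted by their nearest WT spleen sequence. Of the 256, 38 (14.8%) had a WT 5' end with another 3' end, 11 (4.30%) a WT 3' end with another 5' end, and 53 (20.7%) overlapped a WT sequence with both ends different. The remaining 113 (44.1%, interval 38.0 to 50.5%) overlapped no WT spleen sequence. Without Hist1h1c, exact sequences were 12.1% and sequences without overlap 49.6%. Against WT liver, the Miwi2-/- spleen sequences were exact copies in 6.64% and without overlap in 75.4%. Only 53 of the 348 spleen genes had any WT liver sequence, and in the others no overlap was possible. The shares against the 2 WT lists are therefore not like for like. Exact matches to the WT list of the own tissue were 8.83% in liver, for the 419 Miwi2-/- liver sequences.

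**Figure D4:**
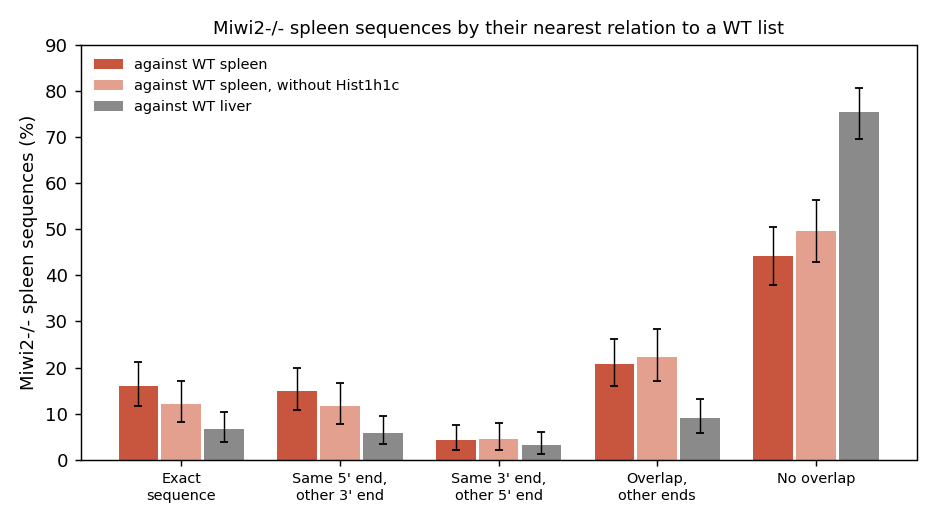
Percentage of Miwi2-/- spleen sequences (y axis) by their nearest relation to a WT list (x axis), for WT spleen, WT spleen without Hist1h1c and WT liver, with exact 95% intervals for counting error. Exact matches are 16% against WT spleen and 6.64% against WT liver, and the largest class in each is the one without overlap, 44.1% and 75.4%. Only 53 of the 348 spleen genes had a WT liver sequence.

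Starting positions were compared as well; an exact sequence in both lists shares its 5' position by construction. The 256 Miwi2-/- sequences had 230 different 5' positions, of which 56 (24.3%, interval 18.9 to 30.4%) were also 5' positions of the WT spleen list. This is 3.04% of the 1844 WT positions. Allowing 1 nt to either side gave 28.7%, and 2 nt gave 32.6%. Of the same 230 positions, 8.70% were 5' positions of WT liver, where only 53 of the 348 spleen genes had a sequence. Miwi2-/- liver shared 14.4% of its 396 positions with WT liver. In Hist1h1c, 26 of the 32 Miwi2-/- sequences began at a WT 5' position, in Trim25 6 of 15, and in Hist1h3g 3 of 7. Hbb-b2 had 1 of 4, the pair printed above, which differs in its 3' end.

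The 5' base was read for the 2006 WT and 254 Miwi2-/- sequences that lie in 3' UTRs of a single strand. All deposited sequences are written along the plus strand of the genome, so the strand was taken from the gene and antisense RNAs could not be told apart. A was the first base of 42.4% of WT sequences (interval 40.2 to 44.6%) and of 33.5% of Miwi2-/- sequences (27.7 to 39.6%). U was the first base of 33% of WT sequences (30.9 to 35.1%) and of 40.2% of Miwi2-/- sequences (34.1 to 46.5%). The intervals for A did not overlap, while those for U did. Distinct sequences overlap one another and are not independent, so the intervals do not test a difference between genotypes. The share of C was 16.7% in WT and 16.9% in Miwi2-/-, and that of G was 7.98% and 9.45%. The 3' UTRs of the listed genes were 26.6% A and 29.9% U in WT, and 26.4% and 29.9% in Miwi2-/-. In liver, A was at 38.9% in WT and 36.1% in Miwi2-/-, and U at 35.6% and 36.8%.

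The shares were also taken by length, with wider intervals. At 16 to 20 nt, 45.3% of 179 WT sequences and 33.3% of 36 Miwi2-/- sequences began with A, and 33.5% and 47.2% with U. At 21 to 23 nt, A was at 42.3% and 31.5% (747 and 89 sequences), and U at 35.5% and 39.3%. At 24 to 26 nt, A was at 42.6% and 36% (641 and 86), and U at 32.8% and 39.5%. At 27 nt or longer, A was at 41.2% and 32.6% (439 and 43), and U at 28.7% and 37.2%. Within each of these length classes, the intervals of the 2 lists overlapped for both bases. The order for A did not hold at every length among sequences without a mismatch. There, A was at 45.9% of 233 WT and 54.2% of 24 Miwi2-/- sequences of 24 to 26 nt, and at 43% of 149 and 50% of 14 at 27 nt or longer.

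**Figure D5:**
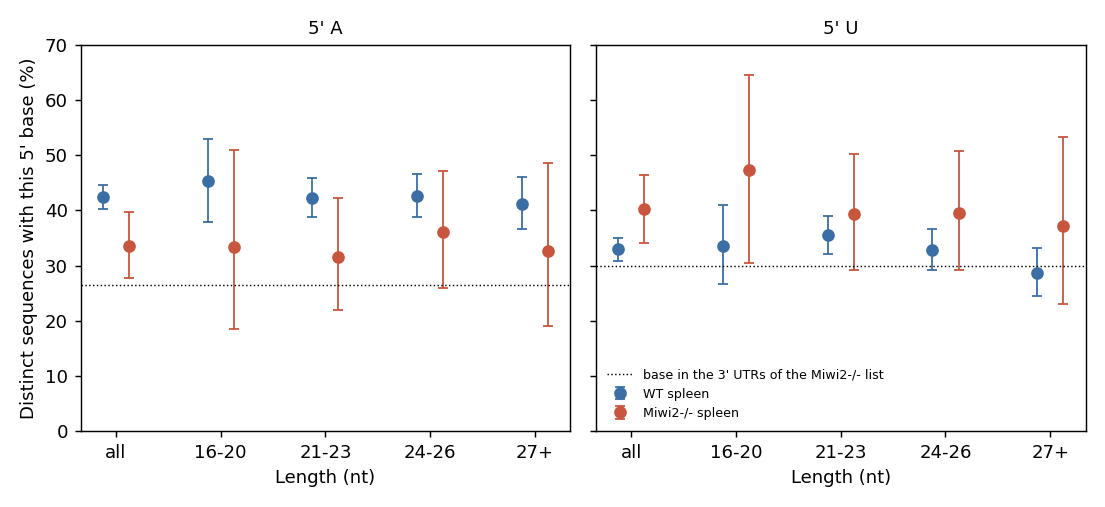
Percentage of distinct sequences that begin with A (left) or U (right) by length in nt (x axis), in WT spleen and Miwi2-/- spleen, with exact 95% intervals; dotted lines mark the share of that base in the 3' UTRs of the Miwi2-/- list. A lies lower and U higher in Miwi2-/- at all 4 lengths, with overlapping intervals, but without mismatches A lies higher in Miwi2-/- at 24 to 26 nt and at 27 nt or longer; for all lengths together A is 42.4% and 33.5%.

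The 5' base was also compared between sequences in both lists and in one. Of the 41 sequences in both lists, 43.9% began with A and 34.1% with U, while of the 213 in the Miwi2-/- list alone, 31.5% began with A and 41.3% with U. WT sequences of genes in both lists began with A in 45.2% of 1115 cases, and those of genes without a Miwi2-/- sequence in 38.9% of 891. With Hist1h1c left out, A was at 42.6% in WT and 31.5% in Miwi2-/-, and U at 33.3% and 43.2%. With each gene weighted equally, A was at 39.0% and 29.0%. Among sequences without a mismatch, A was at 44.9% of 873 and 40% of 100. Single genes varied: in Ddi2, 4 of 9 WT sequences and 0 of 4 Miwi2-/- sequences began with A, and all 4 of the latter with U. In Dcp2, 7 of 12 and 1 of 6 began with A. In Hist1h1c, the order was the other way, with 28 of 75 and 15 of 32. The lists also differ in depth, whose part in these shares was not tested.

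Lengths and 3' ends differed less between the lists. The mean length was 24.2 nt in WT and 23.6 nt in Miwi2-/-, and the most frequent length 23 and 24 nt. Sequences of 27 nt or longer were 21.9% in WT (20.1 to 23.8%) and 16.9% in Miwi2-/- (12.5 to 22.1%), with overlapping intervals. Of Mbnl1, 13 of 49 WT sequences and 0 of 10 Miwi2-/- sequences reached that length. A 3'-terminal A that the genome does not hold was at 45.1% in WT (42.9 to 47.3%) and 50% in Miwi2-/- (43.7 to 56.3%). Among the 41 sequences in both lists it was at 31.7% (18.1 to 48.1%), and among those in the Miwi2-/- list alone at 53.5% (46.6 to 60.4%), with overlapping intervals. Counting matched bases too, 85.4% of WT and 87.8% of Miwi2-/- sequences ended in A. The study allowed mismatches when it removed the 3' adapter, and whether adapter bases remain at these ends was not tested. The median position along the 3' UTR was 48.7% in WT and 40.4% in Miwi2-/-, and without Hist1h1c 51.0% and 49.0%.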

How the data were processed

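Per the labels, small RNA from adult spleen and liver was gel-purified and sequenced with an Illumina small RNA kit, and the processing notes name CASAVA 1.8, cutadapt, Bowtie, bedtools and mm9. The authors removed known non-coding RNAs, kept unique alignments with at most 1 mismatch, and deposited lists of distinct sequences in 3' UTR clusters, with no counts. The deposited BED files of WT clusters hold positions and a score, and the score was not used. Library totals came from the study's data processing tables.

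Sequences were placed on NCBIM37 without gaps by a Python 3.11.15 program (numpy 2.4.6, numba 0.67.0), which was tested on simulated data. A 3' UTR of GENCODE M1 had to cover at least 50% of a sequence, and the gene with the most WT sequences took ties. Intervals (95%, scipy 1.17.1) are exact. Genes named are those examined by qPCR, Piwil4, the 12 with the most WT sequences and none in Miwi2-/-, the 12 with the most Miwi2-/- sequences, those past the depth ratio, and members of lists; 1 list is not reported here. Slc43a2 and AI464131 were named after their values were seen. The genes, lists and rules were chosen with earlier results of these data known. Alternatives were other depth ratios, minimum numbers, mismatches, length limits, gene weights, Mir21 and, added after seeing the data, the cluster regions, a second interval and a set without Hist1h1c. Figures were drawn with matplotlib 3.10.9.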

Additional observations from a re-analysis of the deposited data

Results flagged for a closer look

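The difference in the share of Hist1h1c had opposite signs in spleen and liver. The share was higher in Miwi2-/- than in WT spleen by 8.79 percentage points (12.5% against 3.71%), and differed by -0.294 points in liver (0 of the Miwi2-/- sequences against 10 in WT). The WT liver share of 0.294% is below the 0.716% that a count of 0 allows in the Miwi2-/- liver list, so the liver difference was not detectable at this depth. Trim25 had a share 1.41 points higher in Miwi2-/- than in WT spleen and a difference of -1.0 points in liver. Its Miwi2-/- spleen number was nevertheless below its scaled WT number, and the interval held that number. The sign in spleen thus depends on the measure, since the lists had a ratio of 0.126 beside a depth ratio of 0.195. For 4933403F05Rik, with 21 and 1 sequences in spleen and 67 and 9 in liver, the difference was -0.647 points in spleen and 0.179 points in liver. With 1 library per tissue and genotype, these differences between tissues were not tested.

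Sequences at the Mir21 gene, which the gene-by-gene description left out, made up 18.5% of the Miwi2-/- spleen list and 8.09% of the WT spleen list (70 and 213 sequences).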

How the results depend on the processing

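No paired analysis was possible because each genotype has 1 library per tissue. Without mismatches, the order for 5' A turned at 24 to 26 nt (WT 45.9%, Miwi2-/- 54.2%) and at 27 nt or longer (43% and 50%); no other setting turned the order of A or U at any length. Genes in both lists numbered 60 without mismatches, and 40 and 23 with at least 2 and 3 sequences in each list. Genes without a Miwi2-/- sequence numbered 65 (44.5%) with at least 5 WT sequences, 4 (11.1%) with at least 10 and 81 without mismatches; 88.2% had fewer than 2. Exact sequences were 21.1% of the Miwi2-/- list with terminal A runs taken off, 4.55% at 27 nt or longer, 8.06% without the 5 genes with the most Miwi2-/- sequences and 31.0% with Mir21. Shared 5' positions were 32.6% within 2 nt and 16.9% without those 5 genes. In WT, 5' A was at 39.0% with genes weighted equally, 44.9% without mismatches and 39.1% with Mir21, and 5' U at 38.3% with Mir21. In Miwi2-/-, 5' A was at 40% without mismatches and 5' U at 50.6% with Mir21. Genes above the scaled WT number were 5 with the read ratio and 6 with the list ratio, and 0 were below with either. The causes were not tested. Depth limits each absence: 1 sequence is 0.391% of the Miwi2-/- list.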
